A study of Rattus norvegicus with 6 samples.

Results

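The sugar transporters of the small intestine were followed here through 6 genes: the sodium-coupled carriers Slc5a1, Slc5a4 and Slc5a4b, and the facilitative carriers Slc2a1, Slc2a2 and Slc2a5. Members were taken from the deposited expression table by gene symbol, with the row of highest mean level where a gene had several, and all 6 were found among the 14506 genes tested. Each was measured by 1 row, and 0 of these rows was shared with another symbol. The tissue was ileum, the last stretch of the small intestine, from 20-week-old Zucker fa/fa rats, which are obese because both copies of the leptin receptor gene are defective, a background that both groups share. In 3 rats a duodenum-jejunum bypass (DJB) tied off the duodenum near its start, cut the bowel 10 cm from the ligament of Treitz, and joined the distal end to the duodenum, so that food skipped the duodenum and upper jejunum while bile and pancreatic juice came in further down. The other 3 rats had a sham operation, in which the cuts were rejoined and food took its normal path. Ileum was collected 14 days after surgery, and RNA of each rat was run on 1 Affymetrix whole-transcript array. The labels call the rats of a group biological replicates and do not give the point along the ileum that was sampled or the gut wall layers it held.

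Dietary sugar crosses the enterocyte, the absorptive cell of the gut lining, in a pair of steps. At the brush border SGLT1, the product of Slc5a1, carries glucose and galactose inward with sodium, and GLUT5, the product of Slc2a5, admits fructose. At the opposite face GLUT2, the product of Slc2a2, lets these sugars leave toward the blood. GLUT1, the product of Slc2a1, is a general glucose carrier of many cell types, endothelium among them. The human gene SLC5A4 encodes SGLT3, known as a glucose sensor more than a carrier, and rodents have a pair of such genes. Sugar uptake is known to be strongest in the upper small intestine and weaker in the ileum.

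Slc5a4 and Slc5a4b lie next to each other in the rat reference, on opposite strands with their starts facing and 0 annotated genes between them. Their promoters are shown because these were the members that changed beyond the test threshold. The windows run from 250 bases before to 50 bases after each annotated start (RefSeq, assembly GRCr8). They span chr20:12518137-12518436 on the minus strand for Slc5a4 and chr20:12558743-12559042 on the plus strand for Slc5a4b. Capitals mark the runs of letters shared by both windows that are longer than any run shared by another pair of the 6 promoters, where the longest was 9 bases.

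Slc5a4: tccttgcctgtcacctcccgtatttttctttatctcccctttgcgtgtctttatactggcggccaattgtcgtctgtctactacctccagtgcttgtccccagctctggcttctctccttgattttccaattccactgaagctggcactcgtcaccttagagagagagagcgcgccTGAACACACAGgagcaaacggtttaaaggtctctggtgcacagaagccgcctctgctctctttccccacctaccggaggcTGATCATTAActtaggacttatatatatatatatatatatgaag
Slc5a4b: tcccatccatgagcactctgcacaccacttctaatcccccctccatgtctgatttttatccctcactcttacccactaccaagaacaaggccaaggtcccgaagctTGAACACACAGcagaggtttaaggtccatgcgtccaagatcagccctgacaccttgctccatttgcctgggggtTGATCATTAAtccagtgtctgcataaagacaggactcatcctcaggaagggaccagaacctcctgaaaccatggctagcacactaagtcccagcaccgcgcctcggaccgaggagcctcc

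The 11-base run TGAACACACAG was present, on either strand, in 0.0478% of the 33469 rat promoters of this length, and the 10-base run TGATCATTAA in 0.0508%. Both stand in the same order in both genes, with their first bases 80 bases apart in Slc5a4 and 74 bases apart in Slc5a4b. The letters GTTAAT, one arm of the motif of HNF1, a transcription factor known to drive enterocyte genes, were searched on both strands and found in Slc5a4 alone among the 6, starting 12 bases into the transcript, against 7.45% of all promoters. That match overlaps the second shared run. The full palindromic HNF1 motif was in none of the 6 and in 1 promoter of all. The GATA factor motif AGATAA was found in Slc5a4 alone (11.6% of all promoters), and the E-box CACGTG in Slc5a1 alone (6.42%). The hypoxia factor core ACGTG, which the E-box contains, was found in Slc5a1 and Slc2a1 (19.3%). These are matches of letters, and binding was not measured.

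After DJB, the ileum held less transcript of both SGLT3 genes. Slc5a4 fell 11.8-fold and Slc5a4b fell 3.50-fold. The main glucose, galactose and fructose carriers were lower by smaller amounts that did not pass the test: Slc2a2 lay 2.03-fold, Slc2a5 1.57-fold and Slc5a1 1.26-fold lower in DJB than in sham. Slc2a1 lay 1.13-fold higher in DJB and did not pass either. A gene is said to have risen or fallen where its limma p, adjusted over the 14506 genes tested by the Benjamini-Hochberg method, was under 0.05, which 0.772% of all genes reached and 0.379% reached with a fall. Among the members, 2 of 6 fell, 0 rose and 4 did not pass. At an unadjusted p under 0.05 there were 5 of 6 members, all lower, against 4.45% of all genes. In each of the 6 members the groups did not overlap, with lower DJB values in 5 and higher ones in 1, as was so for 21.1% of all genes in either direction. The exact two-sided permutation test of 3 against 3 arrays gave p = 0.1 for each member, the smallest p it allows. The median change of the members was -0.84 on the log2 scale, beside 0.05 over all genes tested.

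**Figure D1:**
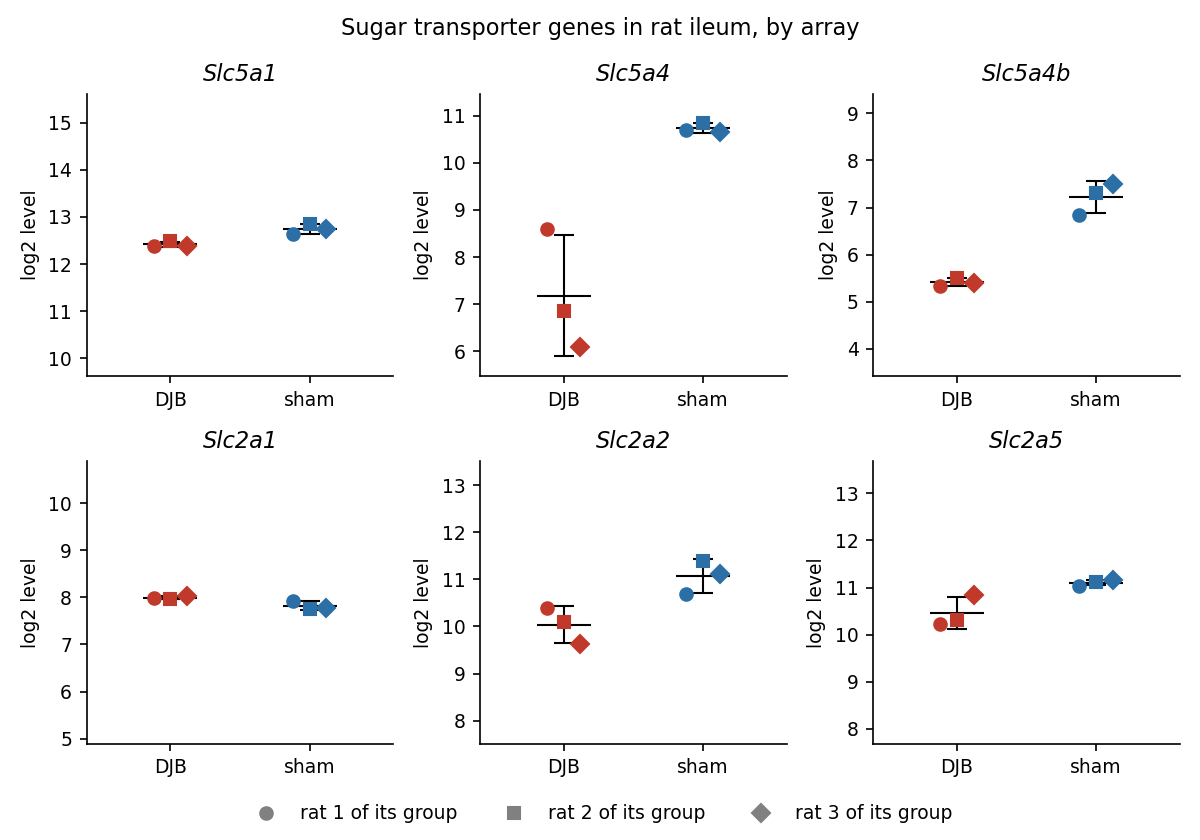
Log2 expression level of each sugar transporter gene on each array, DJB on the left and sham on the right of each panel; bars show the mean and SD of 3 arrays, symbols the rat, and every vertical axis spans the same number of log2 units. The Slc5a4 points of DJB spread from 6.09 to 8.60 and lie far below the sham points, those of Slc5a4b form a tight group below sham, and those of Slc2a1 nearly coincide between groups.

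Slc5a4 stood at log2 levels of 8.60, 6.85 and 6.09 in DJB rats 1 to 3, against 10.69, 10.85 and 10.66 in sham rats 1 to 3. All DJB arrays were low, the first one least so, and the groups were separated by a gap of 2.05. DJB 3 lay just below 6.11, the median of all rows, where a dim signal may understate the fold. The change in the log2 level was -3.56 ± 0.50 (SE), with a 95% confidence interval of -4.69 to -2.42 and limma adjusted p = 0.0185. It ranked number 2 among all 14506 genes by size of decrease. The DJB values had an SD of 1.29 (n = 3) and the sham values an SD of 0.11 (n = 3). The call was lost without DJB 2 (-3.39, adjusted p = 0.103), without sham 2 (-3.50, adjusted p = 0.0819) and without sham 3 (-3.60, adjusted p = 0.0923), and also when the variance was modelled with an intensity trend and robust settings (adjusted p = 0.123). Without DJB 1, the array of highest level in its group, the change was -4.27.

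Slc5a4b stood at 5.34, 5.50 and 5.40 in DJB rats, against 6.85, 7.32 and 7.50 in sham rats. The 3 DJB arrays lay within a narrow band, below 6.11, the median of all rows, so that a dim signal may understate the fold. The change was -1.81 ± 0.16 (SE; interval -2.16 to -1.45; adjusted p = 0.00141), rank 12 among the decreases. It passed whichever array was left out (adjusted p up to 0.0120). Whether probes of either row also bind the transcript of the other gene was not tested.

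Slc5a1, the main glucose carrier of the brush border, stood at 12.39, 12.48 and 12.39 in DJB rats, against 12.64, 12.85 and 12.75 in sham rats. The groups did not overlap, as was true with lower DJB values for 6.56% of all genes, but the gap between them was only 0.16. The change was -0.33 ± 0.10 (SE; interval -0.55 to -0.11; adjusted p = 0.182), so a decrease beyond 1.46-fold lies outside the interval. These levels are near the top of the array scale, where the highest row of any array was 14.10, and there a difference can be understated. With the trend and robust settings the same change passed (adjusted p = 0.0376).

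Among the facilitative carriers, Slc2a2 stood at 10.40, 10.09 and 9.63 in DJB rats, against 10.68, 11.39 and 11.12 in sham rats. The highest DJB value, of rat 1, lay 0.28 under the lowest sham value, also of a rat 1. The change was -1.02 ± 0.22 (SE; interval -1.52 to -0.53; adjusted p = 0.0881), rank 49 among the decreases. It passed once genes with a mean level under the median of all rows were left out and fewer genes were tested (adjusted p = 0.0474).

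Slc2a5 stood at 10.22, 10.30 and 10.84 in DJB rats, against 11.04, 11.13 and 11.15 in sham rats. DJB 3 lay close to the sham arrays and apart from the other DJB arrays. The change was -0.65 ± 0.16 (SE; interval -1.0 to -0.30; adjusted p = 0.124), rank 113 among the decreases. Without DJB 3 it was -0.84 and passed (adjusted p = 0.0187). Slc2a2 and Slc2a5 thus had opposite DJB arrays nearest to sham, rat 1 for Slc2a2 and rat 3 for Slc2a5.

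Slc2a1 stood at 7.99, 7.96 and 8.02 in DJB rats, against 7.93, 7.76 and 7.76 in sham rats. The DJB values lay above the sham values by a gap of 0.04, and 14.5% of all genes had DJB values wholly above sham. The change was 0.18 ± 0.09 (SE; interval -0.03 to 0.39; adjusted p = 0.428). Of 12 genes listed for hypoxia and glycolysis, 0 passed the limma test and 1 had an unadjusted p under 0.05, against 14.3% of all genes. In DJB 7 of them were higher and 5 lower (median change 0.08). The most extreme of them by p was Pdk1, a kinase that limits entry of pyruvate into the citric acid cycle, at 7.67, 7.73 and 7.91 in DJB rats, against 8.01, 8.09 and 8.09 in sham rats.

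**Figure D2:**
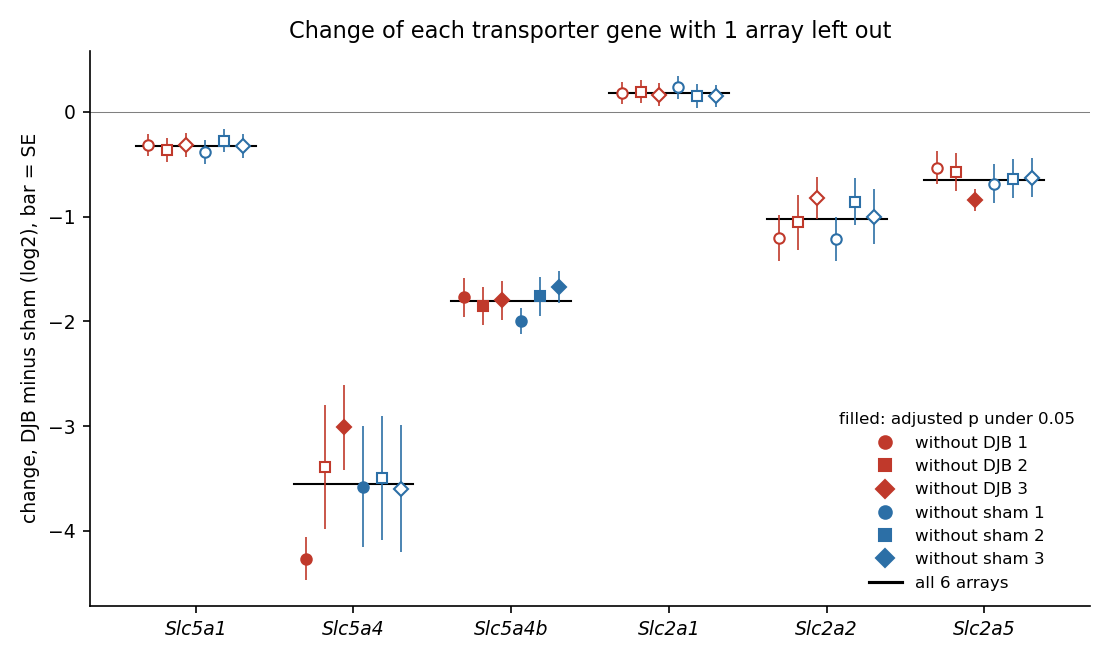
Change of each sugar transporter gene (DJB minus sham, log2, with its SE) when 1 array is left out, in red for a DJB array and blue for a sham array, with the value from all 6 arrays as a black line; filled symbols have an adjusted p under 0.05. Slc5a4b is filled 6 times, Slc5a4 is filled only without DJB 1, DJB 3 or sham 1, and Slc2a5 only without DJB 3.

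Whether one carrier changed more than another was asked on the log2 ratio of both genes within each array, for 6 pairs. The ratio of Slc5a4 to Slc5a1 was -3.79, -5.63 and -6.30 in DJB rats, against -1.95, -2.0 and -2.09 in sham rats, a difference of -3.23 ± 0.75 (SE). For Slc5a4b and Slc5a1 the difference was -1.48 ± 0.16, for Slc2a2 and Slc2a1 -1.20 ± 0.35, and for Slc2a5 and Slc2a1 -0.83 ± 0.20. In each of these 4 pairs the groups did not overlap, and the exact two-sided permutation test gave p = 0.1 (0.15 adjusted over the 6 pairs). Slc5a4 and Slc5a4b differed by -1.75 ± 0.80 (exact permutation p = 0.2, adjusted 0.24) and Slc2a2 and Slc2a5 by -0.37 ± 0.45 (exact permutation p = 0.6, adjusted 0.6). The last of these was 0.025 without DJB 3. No pair could have passed a threshold of 0.05 in this design, so these differences between carriers are descriptions.

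The rest of both families was followed in the same way. Of 9 other SLC5 genes measured, 1 rose, 0 fell and 8 did not pass (median change 0.04), where 0.772% of all genes passed. Of the 9, 3 had an unadjusted p under 0.05, against 14.3% of all genes. The riser, Slc5a8, a sodium-coupled carrier of lactate and short-chain fatty acids, stood at 9.87, 10.20 and 10.58 in DJB rats, against 8.80, 8.63 and 8.63 in sham rats (change 1.53 ± 0.16, adjusted p = 0.00473). Slc5a6, the multivitamin carrier, changed by 0.29 ± 0.13, the iodide carrier gene Slc5a5 by -0.45 ± 0.20 and the myo-inositol carrier gene Slc5a11 by -0.13 ± 0.12, without passing. Of 7 other SLC2 genes, 0 passed the limma test and 0 had an unadjusted p under 0.05 (median change -0.04). The neuronal and white cell glucose carrier gene Slc2a3 had the lowest p, with a change of 0.23 ± 0.12. The others named by rule were Slc2a10 at 0.13 ± 0.09, Slc2a6 at -0.07 ± 0.10 and the proton-coupled inositol carrier gene Slc2a13 at -0.06 ± 0.11. Among all 314 genes tested with a solute carrier symbol, 6 fell and 3 rose (2.87%, against 0.772% of all genes). By size of decrease, Slc5a4 was number 1 of these and Slc5a4b number 3, after the folate carrier gene Slc46a1.

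**Figure D3:**
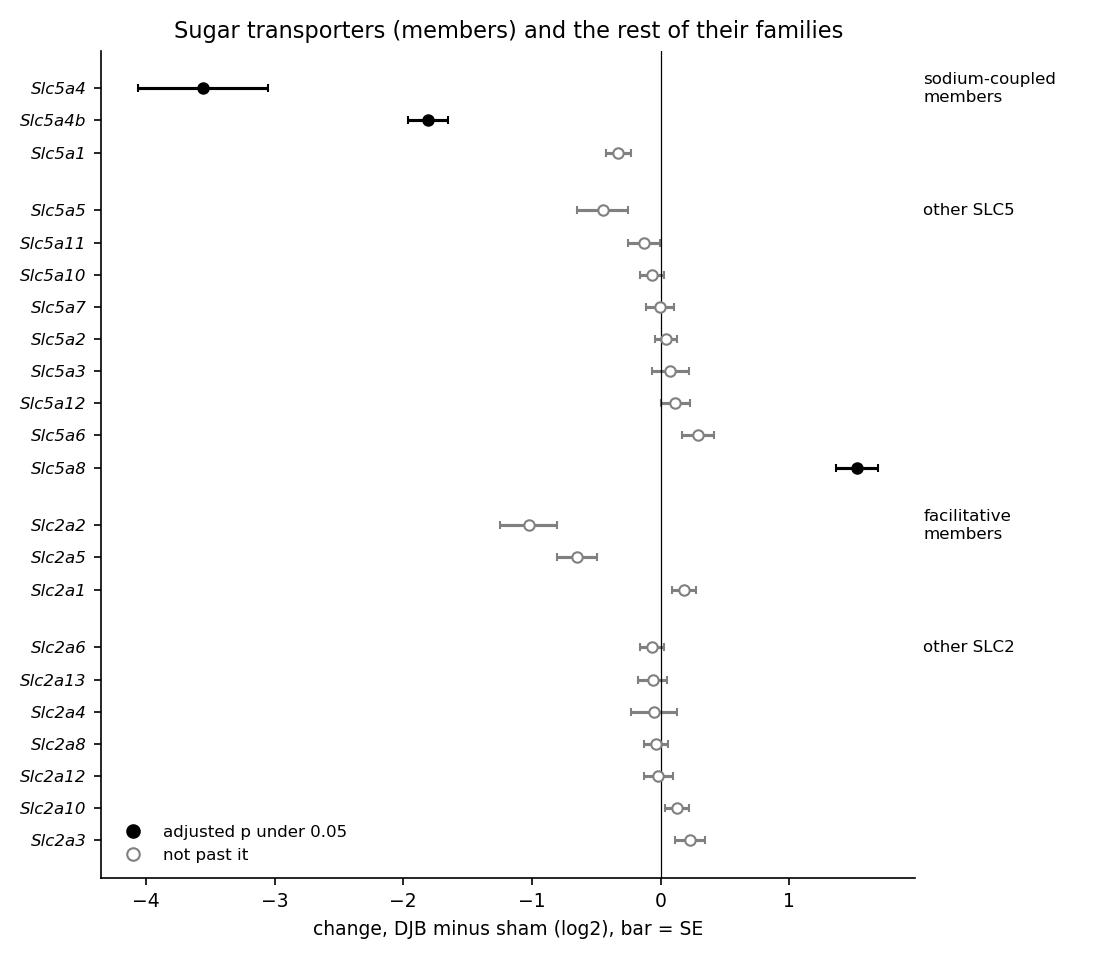
Change (DJB minus sham, log2, with its SE) of the sodium-coupled and facilitative sugar transporters and of the other measured genes of their families; filled points have an adjusted p under 0.05. Slc5a4 at -3.56 and Slc5a4b at -1.81 stand far to the left, Slc5a8 at 1.53 far to the right, and the other SLC2 genes lie between -0.07 and 0.23.

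Genes that prepare, sense, power and use sugar uptake were followed in 4 further lists. In sugar digestion, 1 of 2 measured genes fell. Treh, the brush border enzyme that splits trehalose, stood at 7.06, 6.02 and 5.94 in DJB rats, against 7.93, 7.80 and 7.66 in sham rats (change -1.45 ± 0.26, adjusted p = 0.0445). Si, sucrase-isomaltase, stood at 12.91, 12.82 and 12.86 in DJB rats, against 12.84, 13.03 and 12.99 in sham rats, and the groups overlapped. The Treh call was kept without DJB 1 and lost without each other array (adjusted p reached 0.159).

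In the list of sugar sensing and transporter control, 0 of 16 measured genes passed the limma test, and the median change was -0.14. An unadjusted p under 0.05 was reached by 5 of the 16, against 14.3% of all genes. Gata4, a transcription factor of the upper small intestine, stood at 6.95, 5.97 and 6.55 in DJB rats, against 7.83, 7.82 and 7.36 in sham rats (change -1.18 ± 0.23, adjusted p = 0.0643). It passed without DJB 1 (-1.41, adjusted p = 0.0289), when dim genes were left out (adjusted p = 0.0339) and after median centring of the arrays (-1.21, adjusted p = 0.0454). Pdzk1ip1, whose product MAP17 is a partner of sodium-glucose carriers in kidney, changed by 0.51 ± 0.12. Arrdc4, an arrestin-like gene known to respond to glucose, changed by 0.32 ± 0.10 and Glp2r, the receptor for the gut growth hormone GLP-2, by -0.34 ± 0.12. None of these 3 passed, while their groups did not overlap, as was so for 21.1% of all genes.

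In the sodium gradient list, 0 of 7 genes passed the limma test, and the median change was -0.02. Only 1 gene had an unadjusted p under 0.05, as did 14.3% of all genes. The gene of this list was Slc9a3, the sodium-proton exchanger of the brush border, at 8.68, 7.80 and 6.83 in DJB rats, against 9.35, 8.80 and 8.16 in sham rats (change -1.0 ± 0.43, adjusted p = 0.338). The groups overlapped. The DJB values ran from 6.83 to 8.68, with an SD of 0.92 that was nearly as large as the change. The sodium pump subunit gene Atp1b3 changed by 0.18 ± 0.09, Slc9a2, another sodium-proton exchanger gene, by 0.09 ± 0.12 and the scaffold gene Nherf1 by -0.08 ± 0.12, without passing.

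In the list of sugar use by enterocytes, 1 of 9 genes rose, 1 fell and 7 did not pass (median change -0.37), and 6 had an unadjusted p under 0.05, against 14.3% of all genes. Tkfc, the triose kinase that acts late in fructose breakdown, stood at 10.27, 10.15 and 10.00 in DJB rats, against 10.74, 10.80 and 10.79 in sham rats (change -0.64 ± 0.10, adjusted p = 0.0282). Hk2, a hexokinase that traps glucose in the cell, stood at 9.33, 9.52 and 9.83 in DJB rats, against 8.75, 8.75 and 8.66 in sham rats (change 0.84 ± 0.13, adjusted p = 0.0266). In both genes the DJB values lay wholly on one side of sham. Both calls were lost without DJB 2 and without each sham array, and that of Tkfc also without DJB 3 (adjusted p reached 0.124 for each). G6pc1, the enzyme that frees glucose from its phosphate, changed by -1.30 ± 0.37 and Slc37a4, which feeds that enzyme, by -0.57 ± 0.13, without passing.

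**Figure D4:**
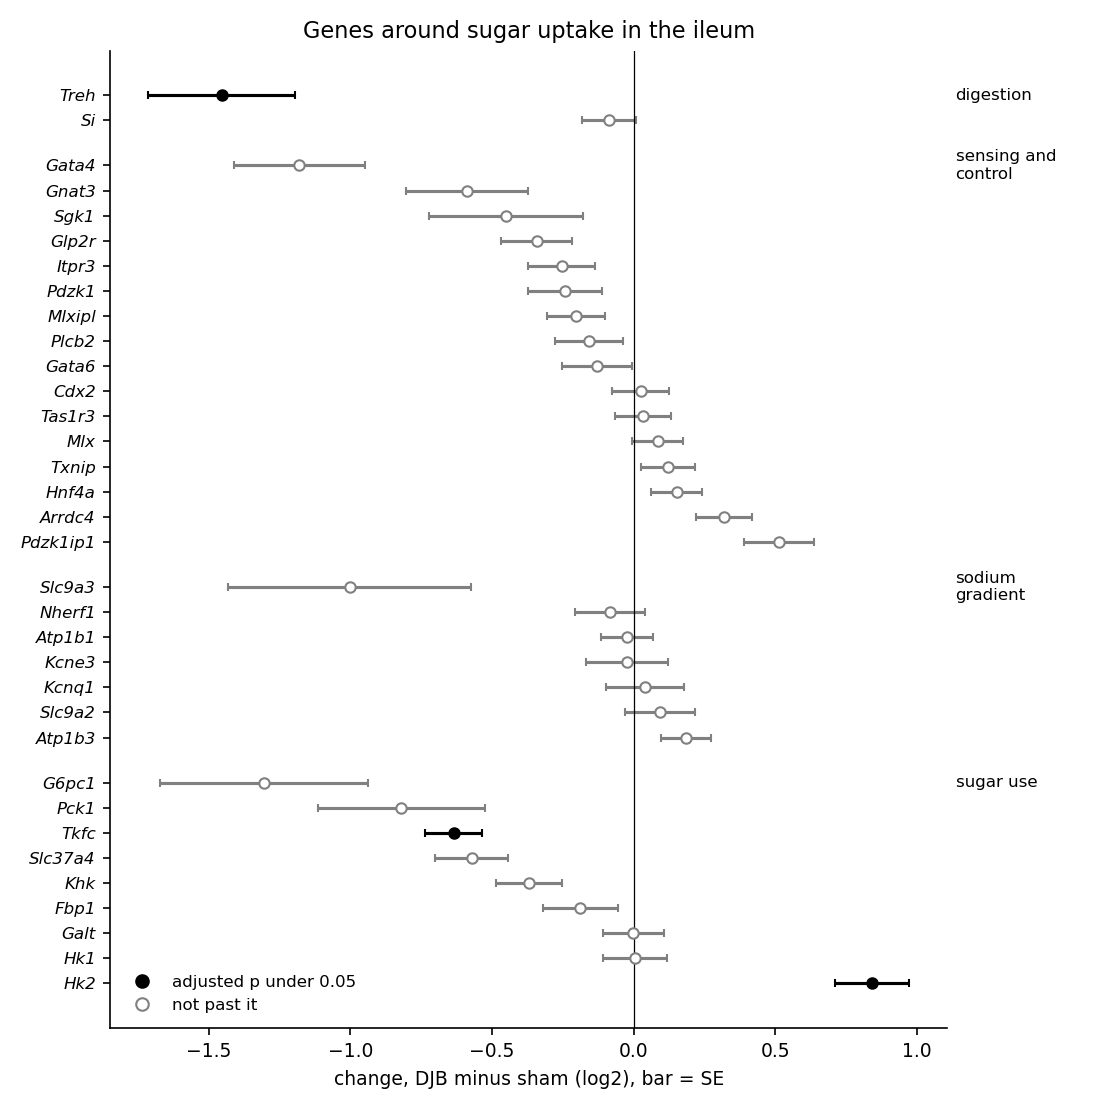
Change (DJB minus sham, log2, with its SE) of measured genes of sugar digestion, of sugar sensing and transporter control, of the sodium gradient and of sugar use in enterocytes; filled points have an adjusted p under 0.05. Treh at -1.45, Tkfc at -0.64 and Hk2 at 0.84 are the filled points.

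For the members whose range over the 6 arrays reached 1 log2 unit, the genes of most similar profile were found by the root mean square distance between deviations from each gene's own mean. The measure is a description over 6 arrays and mostly reflects the difference between groups. Nearest to Slc5a4 were Fam151a at a distance of 0.63, the nucleotide-splitting ectoenzyme gene Enpp3 at 0.64 and the sphingomyelin-digesting enzyme gene Enpp7 at 0.71, where the median over the 14492 genes compared was 1.94. Fam151a followed Slc5a4 in its DJB 1 array, at 8.69, 6.61 and 7.48 in DJB rats, against 10.30, 10.42 and 10.43 in sham rats. Nearest to Slc5a4b were the apolipoprotein gene Apoc3 at 0.25, the adenosine deaminase gene Ada at 0.28 and Susd2 at 0.35 (median 0.96). Nearest to Slc2a2 were the apical export pump gene Abcc2 at 0.17, Cgref1 at 0.18 and the cytochrome P450 gene Cyp2j4 at 0.19 (median 0.62). Among the members themselves closeness in rank was not mutual. Slc5a4b was number 19 in closeness to Slc5a4, but Slc5a4 was number 14281 for Slc5a4b (distance 1.18, above the median). Deviations were not scaled, so the larger change of Slc5a4 (-3.56, against -1.81 for Slc5a4b) itself adds to this distance. The rank therefore does not show that the shapes of these profiles differ. Slc2a2 was number 22 for Slc5a4b, and Slc5a4b number 625 for Slc2a2.

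**Figure D5:**
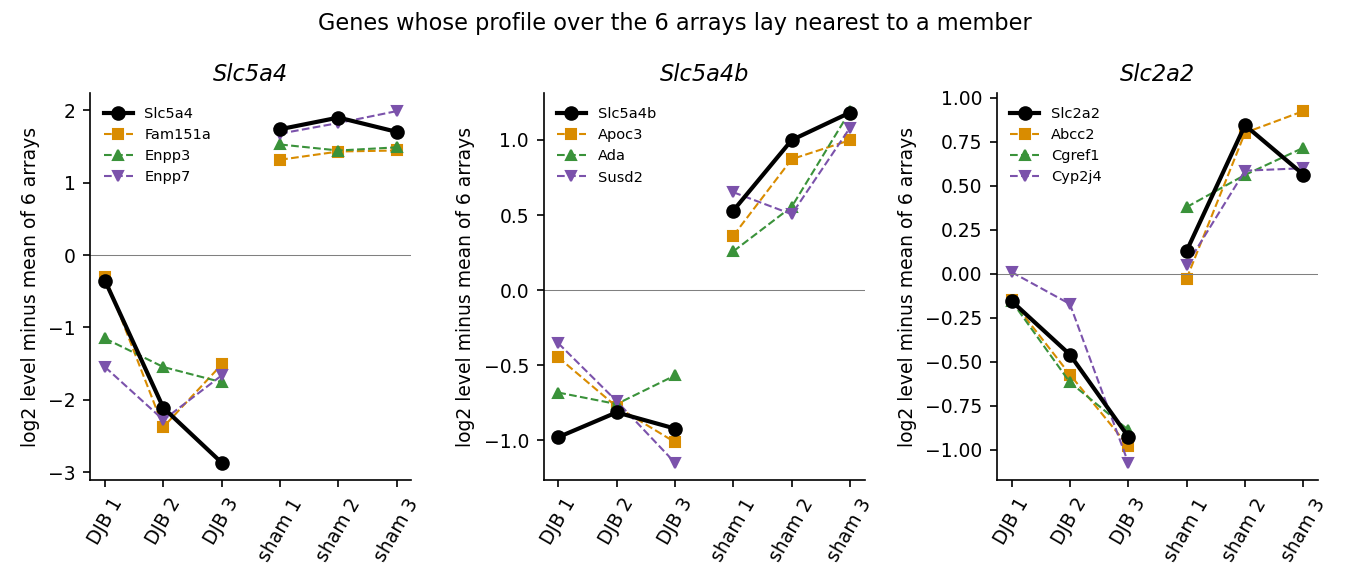
Log2 level minus the gene's mean over the 6 arrays, by array, for Slc5a4, Slc5a4b and Slc2a2 (black) and the 3 genes nearest to each (dashed); lines join the arrays of a group to guide the eye, and rat numbers have no order. The profiles are lower in DJB than in sham on average, with Cyp2j4 on DJB 1 and Abcc2 on sham 1 close to 0, and Slc5a4 reaches further down in DJB 3 than its 3 neighbours.

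Array medians ran from 6.08 to 6.19, arrays correlated at 0.990 to 0.993 within groups and at 0.987 to 0.990 between groups across 29214 rows, which are not independent, and the number of arrays limits precision. In whole tissue, fewer cells of a type and less RNA per cell cannot be told apart. Of 10 enterocyte markers measured, 0 passed the limma test and 1 had an unadjusted p under 0.05; their mean level per array ranged from 11.61 to 11.71 in DJB, against 11.55 to 11.67 in sham. Ileal identity was visible in Fabp6, the ileal bile acid binding protein gene, at 13.81, 13.85 and 13.97 in DJB rats, against 13.44, 13.61 and 13.67 in sham rats. Of 5 ileum markers 1 rose and 0 fell, and the riser was the bile acid carrier gene Slc10a2 (1.73 ± 0.22). An unadjusted p under 0.05 was reached by 4 of these 5 markers, against 14.3% of all genes. These markers went both ways: Cubn and Amn, whose products form the ileal receptor for vitamin B12, changed by -0.92 ± 0.31 and -0.28 ± 0.13 without passing. Of 6 upper small intestine markers 0 rose and 2 fell, S100g, for a calcium-binding protein (-1.10 ± 0.13), and Slc46a1 (-2.38 ± 0.29). An unadjusted p under 0.05 was reached by 5 of these 6, beside the same 14.3% of all genes. Of the 6, 2 were higher in DJB without passing, the iron exporter gene Slc40a1 at 0.49 ± 0.09 (adjusted p = 0.0530, groups not overlapping) and the iron reductase gene Cybrd1 at 0.18 ± 0.13. The mean level of these 6 genes per array ranged from 7.94 to 8.37 in DJB, against 8.76 to 8.89 in sham. Like Slc5a4, Slc46a1 was highest on the first of the DJB arrays (7.23, 6.20 and 6.04 in DJB rats, against 8.48, 9.13 and 9.02 in sham rats). So were Gata4 and Cybrd1 of this list, while its genes S100g, Slc40a1 and Fabp1 were highest on the last of the DJB arrays. The part of these markers, and of the place sampled along the ileum, in the changes of the transporters was not tested.

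Among markers of vessels and blood, 0 of 6 endothelium genes and 0 of 4 red blood cell genes passed the limma test (0 and 1 at an unadjusted p under 0.05). The globin gene Hbb stood at 8.70, 7.80 and 7.67 in DJB rats, against 9.30, 8.65 and 9.21 in sham rats (adjusted p = 0.152), while Ahsp, a defining gene of red cell precursors, lay between 2.95 and 3.20 on all arrays. The red blood cell genes went both ways, with 3 lower and 1 higher in DJB. Alas2 changed by -0.23 ± 0.17 and Slc4a1 by 0.17 ± 0.12, without passing. Of 9 dividing cell markers 1 rose, Ccnb1 by 0.60 ± 0.11, close to the threshold (limma adjusted p = 0.0497). All 9 were higher in DJB, as were 8956 of all 14506 genes tested. An unadjusted p under 0.05 was reached by 6 of the 9, against 14.3% of all genes. Lists for smooth muscle (7 genes), neurons and glia (7), T cells (6), B cells (3), macrophages and neutrophils (8), exocrine pancreas (7) and immediate early genes (7) had 0 genes past the limma threshold. At an unadjusted p under 0.05 they had 1, 0, 1, 0, 5, 0 and 1 genes, in the same order, against 14.3% of all genes. Higher in DJB were 6, 2, 6, 0, 8, 5 and 3 genes, again in that order, and the rest were lower. The part of these markers in the transporter changes was not tested.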

How the data were processed

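Ileum RNA of 3 DJB and 3 sham rats was measured, 1 array per rat. The deposited table holds log2 expression values (29214 rows). The authors' processing was RMA, per the submitters' processing notes, which name nothing else; it corrects background, quantile normalises arrays and summarises probes on the log2 scale, which hides any shift common to most genes. Version, annotation and batches are not given in the sources used here.

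Values were used as deposited. Rows with exactly 1 symbol in the platform annotation were kept (15310), and the row of highest mean over the 6 arrays stood for genes with several rows, which left 14506 genes. DJB minus sham differences came from limma 3.58.1 under R 4.3.3 (lmFit and eBayes, no covariate or filter, two-sided), with Benjamini-Hochberg adjustment over all genes; intervals are those of the moderated fit. On simulated data the script was checked for sign and size. Exact permutation tests used scipy 1.17.1, and figures matplotlib 3.10.9. All 6 members matched RefSeq by gene ID, and all had a promoter there.

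The members, lists and tests were chosen with earlier results of these data known. Named were all members, genes of related lists past the threshold with up to 4 of lowest p, and the 3 genes nearest to each member of range at least 1. Marker genes were named by the same threshold, lowest p and highest level, but not all markers that met this rule are given in the text. Ahsp, Cubn, Amn and Slc40a1 were chosen after their values were seen, as were the shared promoter runs. List genes with no row of a single symbol were not analysed here. Samples with the same replicate number were not paired: their deviations from group means correlated at 0.0053, -0.12 and -0.15.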

Additional observations from a re-analysis of the deposited data

How the results depend on the processing

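Alternatives tried were a replicate block, a repeat of quantile normalisation, median centring of the arrays, dim genes left out, eBayes with an intensity trend and robust settings, the mean over a gene's rows, all 29214 rows tested, and each array left out. All 6 members kept the direction of their change under all 13, and Slc5a4b kept its call under all 13. With 1 array left out, 1 to 3 members fell, Slc5a4 changed by -4.27 to -3.01 and Slc2a5 by -0.84 to -0.53, and Slc2a2 minus Slc2a5 ran from -0.67 to 0.025. With the trend and robust settings Slc5a4 (-3.56) was not called and Slc5a1 (-0.33) was. With dim genes left out Slc2a2 (-1.02) was called.

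Falls in the control list were 1 in place of 0 after median centring and with dim genes left out, and 0 to 1 with an array left out. Falls in sugar digestion were 0 in place of 1 with trend and robust settings and over all rows, and 0 to 1 with an array left out. For sugar use, falls were 0 with the replicate block and over all rows and 2 with dim genes left out or trend and robust settings, rises were 0 with the replicate block and over all rows, and both were 0 to 1 with an array left out. Nherf1 ran from -0.20 to 0.027 with an array left out, turning without sham 3. Over all genes, falls and rises numbered 55 and 57. They were 23 and 27 with the replicate block, 96 and 129 with dim genes left out, 124 and 189 with trend and robust settings, 22 and 29 over all rows, and 10 to 70 and 22 to 38 with an array left out. The replicate block changed no call among the members; the numbers were not shown to pair the rats, and 1 of 3 DJB arrays correlated best with its own number. Testing all rows or leaving out dim genes changes how many genes are tested; for the other alternatives the cause was not tested.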
